A study of Mus musculus with 8 samples.

Results

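The voltage-gated sodium and calcium channel genes and the intracellular calcium release channel genes were examined in RNA-seq data from the substantia nigra, a midbrain region with dopamine neurons that degenerate in Parkinson's disease. Members were the protein-coding genes of the deposited table whose symbols name a sodium channel alpha or beta subunit (Scn), a calcium channel alpha1, alpha2delta or beta subunit (Cacna1, Cacna2d, Cacnb), an inositol trisphosphate receptor (Itpr) or a ryanodine receptor (Ryr). The rule found 38 members among 54532 genes, and 31 of them had a mean of at least 1 FPKM (sequenced fragments divided by gene length in kilobases and by library size) over the 8 libraries. The 8 libraries, all from male mice of the C57BL/6 strain, form 4 groups of 2. One group was given an adeno-associated virus, AAV-α-synuclein, and α-synuclein is the main protein of Lewy bodies. The second was given AKG (α-ketoglutarate, an intermediate of the TCA cycle, taken with the food according to the series title), the third was given AAV-α-synuclein and AKG (the combined group), and the fourth was the wild-type control. The labels give no age, dose, promoter or serotype, and do not say whether control and AKG mice received an empty vector or whether the 2 libraries of a group came from separate mice. The p-values below therefore measure the spread between these libraries, which may be technical.

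Sodium channels carry the rising phase of the action potential, and each consists of one pore-forming alpha subunit with auxiliary beta subunits that adjust its gating and its place in the membrane. Calcium channels convert that depolarization into calcium entry: the alpha1 pore sets the current type, and the cytoplasmic beta and the extracellular alpha2delta subunits carry the pore to the membrane. Inositol trisphosphate and ryanodine receptors release calcium from the endoplasmic reticulum, and nigral dopamine neurons are known for a pacemaking rhythm in which calcium enters with each beat.

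The libraries held 16544190 to 19125423 reads assigned to genes, recovered from the deposited values. Control library 1 stood apart: its mean Spearman correlation with the other libraries across genes was 0.926, against 0.971 to 0.975 for each of the other 7. Th (tyrosine hydroxylase), a defining marker of dopamine neurons, was at 12.6 and 16.1 FPKM in AAV-α-synuclein, 10.7 and 10.4 FPKM in AKG, 14.6 and 16.6 FPKM in combined and 38.8 and 38.8 FPKM in control libraries. Markers of choroid plexus and ependyma summed to 94.1 to 4970 FPKM in 7 libraries, where control library 1 had 9047 FPKM. Red cell markers summed to 172 to 444 FPKM in 7 libraries, where control library 1 had 14.6 FPKM. In bulk RNA, fewer cells of a type and less RNA per cell cannot be told apart.

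Several of the members lie near each other in the genome. Coordinates are those of the deposited table (GRCm38). Scn3a, Scn2a, Scn1a, Scn9a and Scn7a lie in this order on chromosome 2, with gaps of 53.1, 503, 39.2 and 38.5 kb, from the start of Scn3a at 65457118 to the end of Scn7a at 66784914, and 8 other genes, 3 of them protein-coding, lie between Scn2a and Scn1a. Scn2b and Scn4b are 8.32 kb apart on chromosome 9, and Scn10a and Scn11a, both under 1 FPKM, are 34.4 kb apart there. Cacna1c (chromosome 6, 118587240 to 119196418, minus strand) lies 40.1 kb from Cacna2d4, and Cacna1d 318 kb from Cacna2d3, with 10 genes between them, of which 3 are protein-coding. Itpr1 lies on chromosome 6, 108213096 to 108551109, plus strand, Cacna1a on chromosome 8, 84388440 to 84640246, plus strand, Cacna1g on chromosome 11, 94408391 to 94474198, minus strand and Cacna1i on chromosome 15, 80287238 to 80398279, plus strand. Of the 31 members 7 overlap a gene on the other strand that was itself at 1 FPKM or more: Cacnb4, Cacnb2, Cacna1c, Scn9a, Cacna1d, Ryr3 and Cacna2d4. Overlap was judged from the first to the last base of each gene, introns included, and overlap of exons was not checked. No source used here gives the strand setting of the counting. Whether the values of those 7 genes hold reads of the overlapping gene is therefore not known.

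Promoters were read from RefSeq (GRCm38.p6) as the 250 bases before each start, and 21 of the 31 members had at least one, 31 starts in all. Their median GC content was 62.4% with a median of 14 CpG dinucleotides, against 52.4% and 6 for all 32851 promoters of the RefSeq set. That set was not filtered by expression, while the members had to reach 1 FPKM, and the part of this filter in the contrasts below and above was not tested. Each start of a gene counts separately. The GC box (GGGCGG, both strands) was in 12 of 31 member promoters (38.7%) and in 32.7% of all. The E-box CAGCTG, a palindrome counted once, was in 22.6% against 13.0%, the CRE core TGACG in 16.1% against 17.8% and TATAAA in 6.45% against 12.4%. The RE1 parts GGACAGC and TTCAGCACC, stretches of the element that the repressor REST binds, were in 3.23% against 5.28% and in 0 of 31 against 0.301%. A match is a description of letters and no binding site. Cacna1c and Cacna1i are shown because they were among the members with the smallest unadjusted p in the comparisons with control, Cacna2d1 as a GC-box-rich example among the long members, and Scn7a because it was highest in control library 1. Each sequence is given 5′ to 3′ on the gene's strand and ends before the gene's first base in the deposited table, and capitals mark the GC box, the E-box, TGACG and TATAAA on either strand:
Cacna1c chr6:119196419-119196659: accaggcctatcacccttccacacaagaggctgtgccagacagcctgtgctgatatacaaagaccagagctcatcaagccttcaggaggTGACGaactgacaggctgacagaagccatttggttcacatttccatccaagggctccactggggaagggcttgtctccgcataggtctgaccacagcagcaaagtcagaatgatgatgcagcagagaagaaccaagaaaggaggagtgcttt
Cacna1i chr15:80286988-80287237: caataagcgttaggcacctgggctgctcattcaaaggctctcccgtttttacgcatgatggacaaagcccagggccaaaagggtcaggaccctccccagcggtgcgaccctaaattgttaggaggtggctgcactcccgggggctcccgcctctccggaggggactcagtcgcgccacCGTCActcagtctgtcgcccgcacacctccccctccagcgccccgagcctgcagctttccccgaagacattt
Cacna2d1 chr5:15934441-15934690: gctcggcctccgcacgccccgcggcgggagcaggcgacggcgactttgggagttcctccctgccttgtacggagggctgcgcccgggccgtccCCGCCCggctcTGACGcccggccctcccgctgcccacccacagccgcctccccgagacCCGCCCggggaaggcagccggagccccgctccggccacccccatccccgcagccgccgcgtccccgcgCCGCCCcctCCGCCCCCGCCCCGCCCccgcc
Scn7a chr2:66784915-66785160: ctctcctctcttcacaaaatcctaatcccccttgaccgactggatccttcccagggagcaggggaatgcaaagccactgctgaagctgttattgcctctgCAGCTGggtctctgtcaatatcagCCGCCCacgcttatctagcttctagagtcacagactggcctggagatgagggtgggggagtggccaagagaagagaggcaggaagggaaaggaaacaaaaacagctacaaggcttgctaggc

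The upstream sequences differed widely within the family. The 250 bases of Cacna2d1 were 82.4% GC with 36 CpG dinucleotides and a run of GC boxes at the end nearest the gene. Those of Cacna1i were 62.4% GC with 16 CpG, and those of the Cacna1c start printed, the most distal one, 51.6% GC with 2 CpG. Cacna1c had starts further in as well: one with 82.8% GC, 48 CpG and 6 GC boxes, like Cacna2d1 with 6, and one with 50.4% GC, 5 CpG and 0 GC boxes. The deposited values are per gene and do not say which start was used. Scn7a had 53.2% GC and 3 CpG, with a GC box and an E-box. The printed windows of Cacna1c and Cacna1i each held one TGACG and no GC box, and nothing is drawn from that about any factor.

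Across the 31 members, control library 1 was the lowest of the 8 libraries for 27. The members took 0.333% and 0.333% of all reads in AAV-α-synuclein libraries, 0.357% and 0.332% in AKG libraries and 0.353% and 0.308% in combined libraries, against 0.181% and 0.280% in control libraries. Behind those shares were at most 67503 reads, in combined library 1, and at least 33334 reads, in control library 1. Both control libraries lay under all 6 others. Cacna2d4 had the lowest mean that passed the minimum, at 1.23 FPKM, while Itpr3 at 0.672 FPKM fell just under it.

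**Figure D1:**
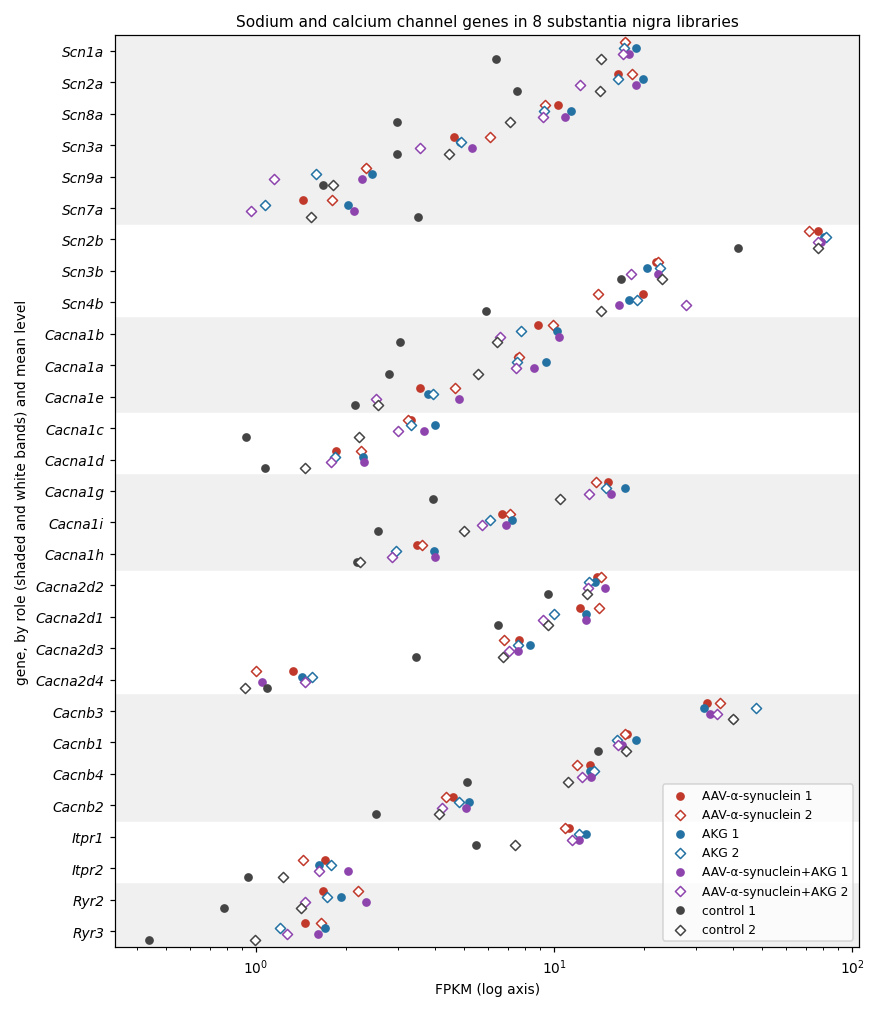
FPKM of 29 of the channel genes (rows, ordered by role and mean level, log axis) in each of the 8 libraries, with filled circles for replicate 1 and open diamonds for replicate 2 of each group. Control library 1 is the leftmost point in 25 of the 29 rows, and Scn7a is the row in which it is the rightmost.

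Of the 10 sodium channel alpha subunit genes, 7 reached 1 FPKM. Scn1a, which encodes the pore known for its role in fast-spiking inhibitory neurons, was at 17.3 and 17.4 FPKM in AAV-α-synuclein libraries, 18.8 and 17.1 FPKM in AKG libraries, 17.8 and 17.0 FPKM in combined libraries and 6.37 and 14.3 FPKM in control libraries. Scn2a, the pore known from the axon initial segment of excitatory neurons, was at 16.4 and 18.3 FPKM in AAV-α-synuclein libraries, 19.9 and 16.5 FPKM in AKG libraries, 18.9 and 12.2 FPKM in combined libraries and 7.51 and 14.3 FPKM in control libraries. These levels were close to each other in every library: the ratio of Scn1a to Scn2a was at most 1.39, in combined library 2, and at least 0.847, in control library 1. Scn8a, the main pore of mature nodes of Ranvier and a carrier of persistent and resurgent current, was at 10.3 and 9.36 FPKM in AAV-α-synuclein libraries, 11.4 and 9.27 FPKM in AKG libraries, 10.9 and 9.17 FPKM in combined libraries and 2.97 and 7.11 FPKM in control libraries. Scn8a thus spanned 3.83-fold over the libraries, and both control libraries were under the other 6. Scn3a, a pore known mainly from the embryonic and neonatal brain, was lower, at 4.62 and 6.08 FPKM in AAV-α-synuclein libraries, 4.83 and 4.86 FPKM in AKG libraries, 5.32 and 3.54 FPKM in combined libraries and 2.96 and 4.44 FPKM in control libraries.

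Scn9a and Scn7a are best known outside the brain's neurons. Scn9a, the pore of peripheral pain-sensing neurons, averaged 1.95 FPKM and was at 2.34 and 2.34 FPKM in AAV-α-synuclein libraries, 2.45 and 1.59 FPKM in AKG libraries, 2.28 and 1.15 FPKM in combined libraries and 1.67 and 1.81 FPKM in control libraries. Scn7a, which encodes a sodium-level sensor of glia and circumventricular organs rather than a voltage-gated pore, was at 1.44 and 1.80 FPKM in AAV-α-synuclein libraries, 2.04 and 1.07 FPKM in AKG libraries, 2.13 and 0.960 FPKM in combined libraries and 3.49 and 1.53 FPKM in control libraries. Its lowest value was in combined library 2 and its highest in control library 1, where Scn1a, Scn2a and Scn8a were lowest. Of the summed FPKM of the alpha subunit genes, Scn7a made up at least 2.08% and, in control library 1, 13.4%. Scn7a is 7338 bp long in the table and Scn8a 15766 bp, and the part of length in this share was not tested.

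All 4 beta subunit genes of the sodium channel were well over the minimum. Scn2b, which is tied to the pore by a disulfide bond, was at 77.0 and 71.9 FPKM in AAV-α-synuclein libraries, 80.2 and 81.5 FPKM in AKG libraries, 78.8 and 77.1 FPKM in combined libraries and 41.4 and 76.6 FPKM in control libraries. Scn2b was lowest in control library 1, and the other 7 libraries lay within 71.9 to 81.5 FPKM. Scn3b, which binds the pore without a covalent bond, varied less than Scn2b and Scn4b, at 21.9 and 22.4 FPKM in AAV-α-synuclein libraries, 20.6 and 22.7 FPKM in AKG libraries, 22.4 and 18.2 FPKM in combined libraries and 16.8 and 22.9 FPKM in control libraries. Scn4b, whose tail is known to act as the open-channel blocker behind resurgent current, was at 19.9 and 14.0 FPKM in AAV-α-synuclein libraries, 17.9 and 19.0 FPKM in AKG libraries, 16.5 and 27.6 FPKM in combined libraries and 5.90 and 14.4 FPKM in control libraries. Scn4b had the widest range of all 31 members, 4.68-fold, with combined library 2 at the high end and control library 1 at the low end. Set against Scn2b in the same libraries, the ratio of Scn4b to Scn2b was highest in combined library 2 (0.358) and lowest in control library 1 (0.143). Combined library 2 also had the highest sum of striatal projection neuron markers, 127.5 FPKM, against 63.5 FPKM in combined library 1. Control library 1, where Scn4b was lowest, had the next highest sum, 113 FPKM, and the remaining libraries had 65.8 to 71.2 FPKM. Of these markers, Ppp1r1b was at 52.2 FPKM in combined library 2 and 66.4 FPKM in control library 1. Rgs9 (3.66 FPKM) and Pde10a (5.28 FPKM) in combined library 2 were inside the range of the other libraries. The part of striatal tissue in the values of Scn4b was not tested.

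Among the calcium pores, the high-voltage-activated genes of presynaptic terminals were Cacna1b, which encodes the N-type pore, and Cacna1a, which encodes the P/Q-type pore. Cacna1b was at 8.85 and 9.94 FPKM in AAV-α-synuclein libraries, 10.2 and 7.73 FPKM in AKG libraries, 10.4 and 6.60 FPKM in combined libraries and 3.04 and 6.41 FPKM in control libraries. Cacna1a was at 7.60 and 7.62 FPKM in AAV-α-synuclein libraries, 9.42 and 7.52 FPKM in AKG libraries, 8.59 and 7.46 FPKM in combined libraries and 2.79 and 5.58 FPKM in control libraries. In both genes the 6 libraries of the other groups lay over both control libraries. Cacna1e, the R-type pore, was at 3.55 and 4.65 FPKM in AAV-α-synuclein libraries, 3.76 and 3.94 FPKM in AKG libraries, 4.79 and 2.52 FPKM in combined libraries and 2.14 and 2.57 FPKM in control libraries, and combined library 2 lay close to control library 2. Of the summed FPKM of the alpha1 genes, Cacna1i held 12.2% to 13.8%, Cacna1a 14.5% to 17.2% and Cacna1e 5.84% to 11.3% over the 8 libraries.

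Of the L-type pores, which open slowly inactivating currents, Cacna1c was at 3.31 and 3.23 FPKM in AAV-α-synuclein libraries, 3.98 and 3.31 FPKM in AKG libraries, 3.65 and 2.998 FPKM in combined libraries and 0.923 and 2.22 FPKM in control libraries. Cacna1c had up to 1555 reads in a library, against 378 reads in control library 1. Cacna1d, whose product opens at lower voltage and is known for its part in the pacemaking of nigral dopamine neurons, was at 1.85 and 2.26 FPKM in AAV-α-synuclein libraries, 2.29 and 1.85 FPKM in AKG libraries, 2.31 and 1.78 FPKM in combined libraries and 1.07 and 1.46 FPKM in control libraries. The ratio of Cacna1c to Cacna1d was 1.43 to 1.79 in the 6 libraries given AAV-α-synuclein, AKG or both, against 0.859 and 1.52 in control libraries 1 and 2. Cacna1c is 21191 bp long in the table and Cacna1d 12621 bp, values ran with length within libraries, and the part of length in this ratio was not tested.

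The low-voltage-activated T-type pores carry the rebound bursts of thalamic and midbrain neurons. Cacna1g was the highest alpha1 gene, at 15.1 and 13.8 FPKM in AAV-α-synuclein libraries, 17.4 and 14.9 FPKM in AKG libraries, 15.6 and 13.1 FPKM in combined libraries and 3.92 and 10.5 FPKM in control libraries. Its range over the libraries was 4.43-fold, the second widest among the members after Scn4b. Cacna1i, the slowest of the T-type pores, was at 6.70 and 7.11 FPKM in AAV-α-synuclein libraries, 7.23 and 6.08 FPKM in AKG libraries, 6.91 and 5.72 FPKM in combined libraries and 2.57 and 5.003 FPKM in control libraries. Cacna1h, the third T-type pore, averaged 3.15 FPKM and stood at 3.48 and 3.60 FPKM in AAV-α-synuclein libraries, 3.94 and 2.96 FPKM in AKG libraries, 3.97 and 2.85 FPKM in combined libraries and 2.19 and 2.23 FPKM in control libraries, with the control libraries together at the bottom.

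The alpha2delta subunits are cleaved, membrane-anchored proteins that bring pores to the synapse, and Cacna2d1 and Cacna2d2 encode the binding sites of gabapentin. Cacna2d2, which is mutated in the ducky mouse, was at 13.9 and 14.4 FPKM in AAV-α-synuclein libraries, 13.7 and 13.1 FPKM in AKG libraries, 14.9 and 13.0 FPKM in combined libraries and 9.54 and 12.9 FPKM in control libraries. Cacna2d1, the best-known gabapentin target, was at 12.2 and 14.2 FPKM in AAV-α-synuclein libraries, 12.8 and 9.97 FPKM in AKG libraries, 12.8 and 9.17 FPKM in combined libraries and 6.50 and 9.52 FPKM in control libraries. Cacna2d3, known from work on pain in flies and mice, was at 7.62 and 6.79 FPKM in AAV-α-synuclein libraries, 8.33 and 7.55 FPKM in AKG libraries, 7.57 and 7.08 FPKM in combined libraries and 3.44 and 6.76 FPKM in control libraries. In each of these 3 genes control library 1 was the lowest library and the other 7 spanned at most 1.55-fold. Cacna2d4, known mainly from the retina, was at 1.33 and 1.001 FPKM in AAV-α-synuclein libraries, 1.43 and 1.54 FPKM in AKG libraries, 1.05 and 1.46 FPKM in combined libraries and 1.09 and 0.918 FPKM in control libraries, and here control library 2 was the lowest.

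The calcium beta subunits are cytoplasmic proteins that bind the alpha1 pore and shield it from degradation. Cacnb3 was the highest of them and showed no such low value in control library 1, at 32.6 and 36.0 FPKM in AAV-α-synuclein libraries, 31.9 and 47.6 FPKM in AKG libraries, 33.4 and 35.3 FPKM in combined libraries and 39.7 and 39.9 FPKM in control libraries. Cacnb4, the beta subunit lost in the lethargic mouse, was at 13.2 and 11.9 FPKM in AAV-α-synuclein libraries, 13.2 and 13.6 FPKM in AKG libraries, 13.3 and 12.4 FPKM in combined libraries and 5.12 and 11.1 FPKM in control libraries. Cacnb1, first known from skeletal muscle, averaged 16.8 FPKM with a range of 1.34-fold, the narrowest of the 31. Cacnb2, the main cardiac form, averaged 4.35 FPKM with a range of 2.05-fold.

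Of the release channels, Itpr1, the main inositol trisphosphate receptor of neurons, was at 11.2 and 10.9 FPKM in AAV-α-synuclein libraries, 12.8 and 12.1 FPKM in AKG libraries, 12.1 and 11.4 FPKM in combined libraries and 5.46 and 7.42 FPKM in control libraries. Its 6 values outside the control group fell within 10.9 to 12.8 FPKM, over both control values. Itpr2, the form known from astrocytes, averaged 1.55 FPKM. Ryr2, the ryanodine receptor of heart and the most abundant one of brain, was at 1.68 and 2.20 FPKM in AAV-α-synuclein libraries, 1.93 and 1.74 FPKM in AKG libraries, 2.35 and 1.46 FPKM in combined libraries and 0.784 and 1.42 FPKM in control libraries. Ryr3, a form with low levels in many tissues, was at 1.46 and 1.66 FPKM in AAV-α-synuclein libraries, 1.70 and 1.20 FPKM in AKG libraries, 1.62 and 1.27 FPKM in combined libraries and 0.436 and 0.995 FPKM in control libraries. The ratio of Itpr1 to Ryr2 lay between 4.95 and 7.86, and that in control library 1 (6.97) was inside the range of the other libraries.

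Most of the 7 members under the minimum are best known from other tissues, and the highest of them was Itpr3, the inositol trisphosphate receptor of many secretory cells. Cacna1s and Ryr1, the L-type pore and release channel of skeletal muscle, averaged 0.376 and 0.115 FPKM. Ryr1 was at 0.0595 and 0.178 FPKM (AAV-α-synuclein), 0.0870 and 0.114 FPKM (AKG), 0.134 and 0.141 FPKM (combined) and 0.137 and 0.0673 FPKM (control), from 24 to 66 reads per library. Skeletal muscle markers summed to 3.06 to 5.33 FPKM over the 8 libraries. Scn11a, a pore of peripheral sensory neurons, averaged 0.0831 FPKM and Cacna1f, the L-type pore of the retina, 0.0430 FPKM. Cacna1f had 2 reads in AKG library 1, its lowest, and 22 in control library 1, its highest. Scn4a, the skeletal muscle sodium pore, and Scn10a, another sensory neuron pore, had 0 reads in 4 libraries each, and a count of 0 allows up to 0.0238 FPKM for Scn4a and 0.0222 FPKM for Scn10a at the depths of those libraries (3 reads, counting error only).

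In AAV-α-synuclein against control, which asks what the vector alone did, most channel genes were at a higher level in the AAV-α-synuclein libraries, and none passed the test. On the log2(FPKM + 1) scale 29 of 31 members were higher and 2 were lower, with a median difference of 0.50, against 48.8% of all 13716 genes tested higher and a median of -0.0087. Itpr1 averaged 11.04 ± 0.222 FPKM in AAV-α-synuclein and 6.44 ± 1.39 FPKM in control libraries (SD, n = 2 each), a log2 difference of 0.71 ± 0.14 (SE). Cacna1c differed by 0.78 ± 0.24 and Cacna1i by 0.77 ± 0.24, and together with Itpr1 they had the smallest unadjusted p among the members. The greatest differences on the log2(FPKM + 1) scale were those of Cacna1g, 1.04 ± 0.35, Scn8a, 0.93 ± 0.31, and Cacna1b, 0.92 ± 0.31. That scale understates differences of low genes. By ratio of group means, Ryr3 (2.18-fold) and Cacna1c (2.08-fold) lay over Cacna1g (2.01-fold), Cacna1b (1.99-fold) and Scn8a (1.95-fold). Scn7a and Cacnb3 were on the other side, at -0.37 ± 0.34 and -0.21 ± 0.18.

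With limma, 0 of the 31 members had an adjusted p under 0.05 in that comparison, where 0% of all genes tested were called, and the lowest adjusted p of a member was 0.294. With limma's voom on the recovered reads the count was also 0. At an unadjusted p under 0.05 there were 14 members, all higher, and 2305 genes, 16.8% of those tested. Both AAV-α-synuclein libraries were higher than both control libraries for 23 of 31 members, against 26.3% of all genes, and lower for 1, Cacnb3, against 27.6% of all genes. Without control library 1, 26 members were higher, with a median difference of 0.26, and 0 were called. Without control library 2, which leaves the control group with library 1 alone, the median was 0.72 and 17 members were called, as were 24.5% of all genes. In that fit the spread comes from the other 3 groups alone, and the lone control library, the one that stands apart, is assumed to vary as they do, which holds for each value given without control library 2.

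AKG against control asks what the dietary supplement did in mice not given AAV-α-synuclein, and it shares both control libraries with the comparison above. Again 29 of 31 members were higher in AKG libraries and 2 lower, with a median log2 difference of 0.49, against 48.6% of all genes higher and a median of -0.0098. Itpr1 averaged 12.4 ± 0.449 FPKM in AKG and 6.44 ± 1.39 FPKM in control libraries (SD, n = 2 each), a difference of 0.86 ± 0.14. Cacna1c, at 0.90 ± 0.24, and Cacna1a, at 0.92 ± 0.25, followed it by unadjusted p. Cacna1g had the greatest difference of any member in the 3 comparisons with control on the log2(FPKM + 1) scale, 1.19 ± 0.35. By ratio of group means Cacna1c was higher in AKG against control, at 2.32-fold against 2.25-fold for Cacna1g. Scn7a was at -0.43 ± 0.34 and Cacnb3 at -0.031 ± 0.18.

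No member passed the limma test in AKG against control: 0 of 31 were called, where 0.00729% of all genes were, and the lowest adjusted p of a member was 0.269. The one gene called was Th, lower in AKG libraries by a log2 difference of -1.79 ± 0.13 (adjusted p = 0.041), and without any one of the 7 libraries other than control library 2 the count of called genes was 0. Voom called 0 members too, and at an unadjusted p under 0.05 there were 16 members, all higher, and 2431 genes, 17.7% of those tested. Both AKG libraries were over both control libraries for 25 of 31 members, against 26% of all genes, and under them for 0 members, against 26.4% of all genes. Without control library 1, 28 members were higher, with a median of 0.28 and 0 called. The median was 0.76 without control library 2, with 16 called and 24.6% of all genes called.

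The combined group against control uses the same control libraries again. There 28 of 31 members were higher in combined libraries and 3 lower, with a median log2 difference of 0.46, against 49.2% of all genes higher and a median of -0.0055. Itpr1 averaged 11.8 ± 0.466 FPKM in combined and 6.44 ± 1.39 FPKM in control libraries (SD, n = 2 each), a difference of 0.79 ± 0.14, followed by unadjusted p by Cacna1a at 0.85 ± 0.25 and Cacna1c at 0.79 ± 0.24. Scn4b had the greatest difference, 1.12 ± 0.40. Scn7a at -0.44 ± 0.34, Cacnb3 at -0.21 ± 0.18 and Scn9a at -0.047 ± 0.23 were the members on the lower side.

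In the combined group against control, limma called 0 of 31 members and 0% of all genes, and the lowest adjusted p of a member was 0.349. Voom called 0 members, and 14 members, all higher, were at an unadjusted p under 0.05, as were 1907 genes, 13.9% of those tested. Both combined libraries were over both control libraries for 20 of 31 members, against 21.3% of all genes, and under them for 1, Cacnb3, against 20.5% of all genes. Without control library 1, 25 members were higher, with a median of 0.25 and 0 called. The median was 0.68 without control library 2, with 16 called and 21.3% of all genes called. Without combined library 1 the median was 0.32, and without combined library 2 it was 0.63.

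**Figure D2:**
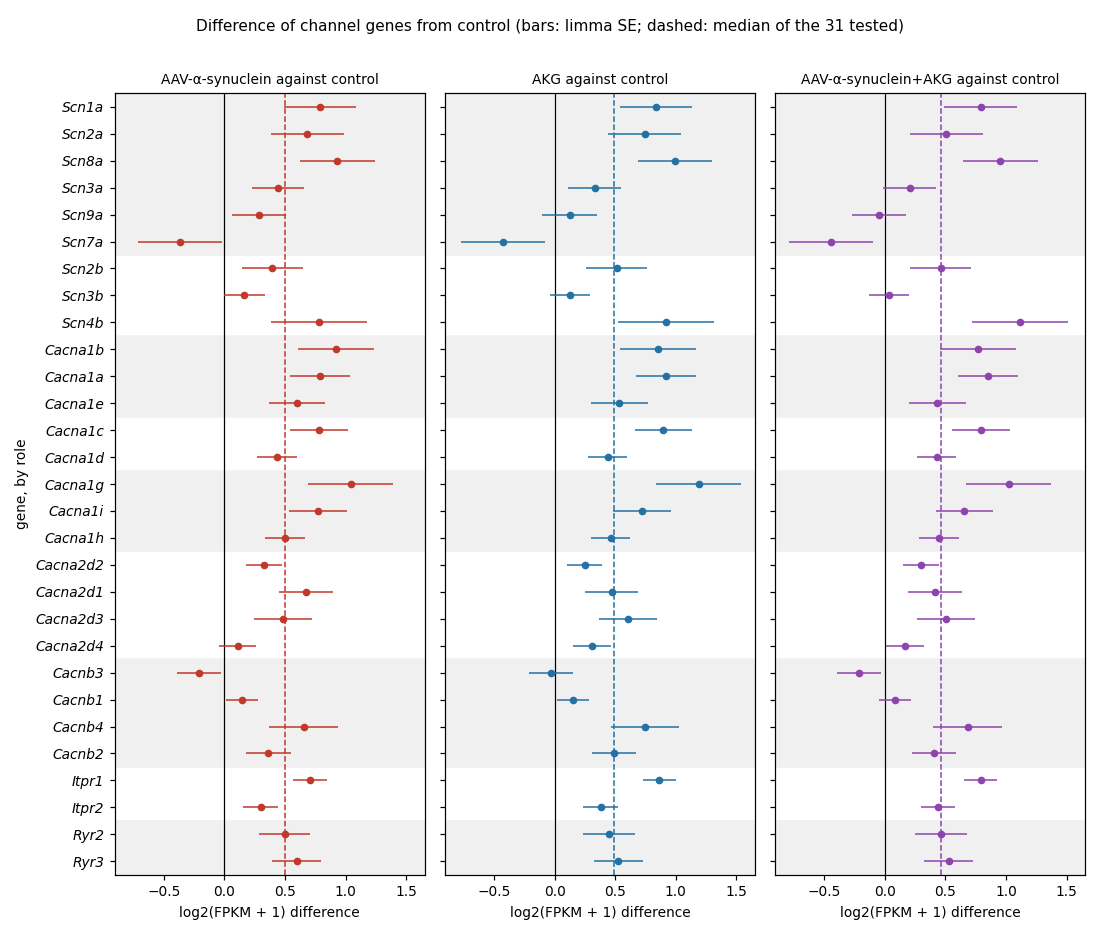
Difference in log2(FPKM + 1) of 29 of the channel genes (rows, by role) from control in AAV-α-synuclein, AKG and combined libraries, with limma standard errors as bars and the median of all 31 members dashed (0.50 for AAV-α-synuclein, 0.49 for AKG and 0.46 for combined libraries). Most points lie right of 0 in every panel, and Scn7a and Cacnb3 lie left of it in all 3. The panels share both control libraries.

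By role, the presynaptic and T-type pores had the highest medians on the log2(FPKM + 1) scale, which understates differences of low genes. By ratio of group means in AAV-α-synuclein against control, Ryr3 (2.18-fold) and Cacna1c (2.08-fold) lay over all presynaptic and T-type pore genes. Ryr2 (1.76-fold) and Cacna1d (1.62-fold) did not. The ranking of roles is therefore given for the log2 scale only. The 3 genes of P/Q-, N- and R-type pores were higher in each group than in control, with medians of 0.79 in AAV-α-synuclein, 0.86 in AKG and 0.77 in combined libraries, and the 3 T-type genes had medians of 0.77 in AAV-α-synuclein, 0.72 in AKG and 0.66 in combined libraries. Both L-type, both inositol trisphosphate receptor and both ryanodine receptor genes over the minimum were higher in all 3 comparisons. Calcium beta subunits ranged from -0.21 for Cacnb3 to 0.65 for Cacnb4 in AAV-α-synuclein against control, and sodium beta subunits from 0.16 for Scn3b to 0.78 for Scn4b. In the row of sodium pore genes on chromosome 2, the difference in that comparison was 0.44 ± 0.22 (SE) for Scn3a, 0.68 ± 0.30 for Scn2a and 0.79 ± 0.30 for Scn1a. It was 0.28 ± 0.23 for Scn9a and -0.37 ± 0.34 for Scn7a. Whether these neighbours differ from each other in the size of the difference was not tested. In AAV-α-synuclein against control, the genes with printed upstream letters differed by 0.78 (Cacna1c), 0.77 (Cacna1i), 0.67 (Cacna2d1) and -0.37 (Scn7a). Cacna1c and Cacna1i were printed for their small unadjusted p, so nothing is drawn from their similar values. None of these role groups was tested as a group.

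The combined group against AAV-α-synuclein asks what AKG added in mice given the vector, and it uses no control library. The channel genes lay on both sides of 0: 14 of 31 were higher and 17 lower, with a median log2 difference of -0.018, against 0.0060 for all genes. Scn9a had the smallest unadjusted p, at 2.28 and 1.15 FPKM in combined and 2.34 and 2.34 FPKM in AAV-α-synuclein libraries, a difference of -0.33 ± 0.23. Both combined libraries of Scn9a were under both AAV-α-synuclein libraries, although the first by a small margin. Cacna2d1 differed by -0.26 ± 0.22 and Scn3a by -0.24 ± 0.22, each with overlapping groups, and Scn3a was at 0.0023 without combined library 2. Scn4b, at 0.34 ± 0.40, had the greatest positive difference, which came with its high value in combined library 2.

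In that comparison limma and voom called 0 of 31 members each, limma called 0% of all genes, and every member had an adjusted p of 0.99996. At an unadjusted p under 0.05 there were 0 members and 186 genes, 1.36% of those tested. Both combined libraries were over both AAV-α-synuclein libraries for 2 of 31 members, Itpr1 and Scn2b, against 12.9% of all genes, and under them for 2, Scn9a and Cacnb1, against 11.4% of all genes. The count of members above 0 turned on combined library 2: without it 25 of 31 were higher with a median of 0.078, and without combined library 1 there were 7 with a median of -0.12.

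The combined group against AKG asks what the vector added in mice given AKG. Here 6 of 31 members were higher in combined libraries and 25 lower, by small amounts, with a median log2 difference of -0.065, against -0.0011 for all genes. Cacnb3 was at 33.4 and 35.3 FPKM in combined and 31.9 and 47.6 FPKM in AKG libraries, a difference of -0.18 ± 0.18, which turned to 0.10 without AKG library 2. Cacna2d4 differed by -0.15 ± 0.15. Itpr1 was lower in both combined libraries, at 12.1 and 11.4 FPKM against 12.8 and 12.1 FPKM in AKG libraries.

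In the combined group against AKG, limma and voom called 0 of 31 members each, limma called 0% of all genes, and every member had an adjusted p of 0.99994. At an unadjusted p under 0.05 there were 0 members and 156 genes, 1.14% of those tested. Both combined libraries were over both AKG libraries for 0 members, against 11.3% of all genes, and under them for 2, Itpr1 and Scn2b, against 11.8% of all genes. The majority on the lower side did not hold without combined library 2, where 20 of 31 members were higher (median 0.052), or without AKG library 1, where 19 were (median 0.034).

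The interaction asks whether the combined group differs from what the differences of the AAV-α-synuclein and AKG groups from control add up to. It was below 0 for 29 of 31 members, with a median of -0.57 on the log2 scale, against 0.0087 for all genes. The combined group lay at about the same distance from control as each single group did. Itpr1 was at -0.78 ± 0.19, Cacna1g at -1.21 ± 0.49 and Cacna1c at -0.88 ± 0.33. Limma called 0 members, as voom did, and 0% of all genes, and the lowest adjusted p of a member was 0.537. At an unadjusted p under 0.05 there were 5 members, all below 0 (Itpr1, Cacna1c, Cacna1i, Cacna1g and Cacna1a), and 998 genes, 7.28% of those tested. The median was -0.32 without control library 1, with 0 called, and -0.80 without control library 2, with 12 members and 9.98% of all genes called.

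Channel genes are long, and length moved with the differences from control. The members' median length in the deposited table was 10137 bp, with Ryr2 the longest at 28790 bp, against 4070.5 bp for all genes tested, and 23 of 31 members were longer than 8000 bp. In AAV-α-synuclein against control all 23 of these long members were higher, with a median of 0.60, and 87.5% of all 2224 genes over that length were higher too, with a median of 0.27. The 8 members of 8000 bp or shorter had a median of 0.23, with 6 higher, against 41.3% of the 11492 short genes tested and a median of -0.061. In AKG against control the long members had a median of 0.54 and all long genes one of 0.25, and the short members had one of 0.20 and all short genes one of -0.057. In the combined group against control the long members had a median of 0.50 and all long genes one of 0.23, and the short members had one of 0.19 and all short genes one of -0.048.

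**Figure D3:**
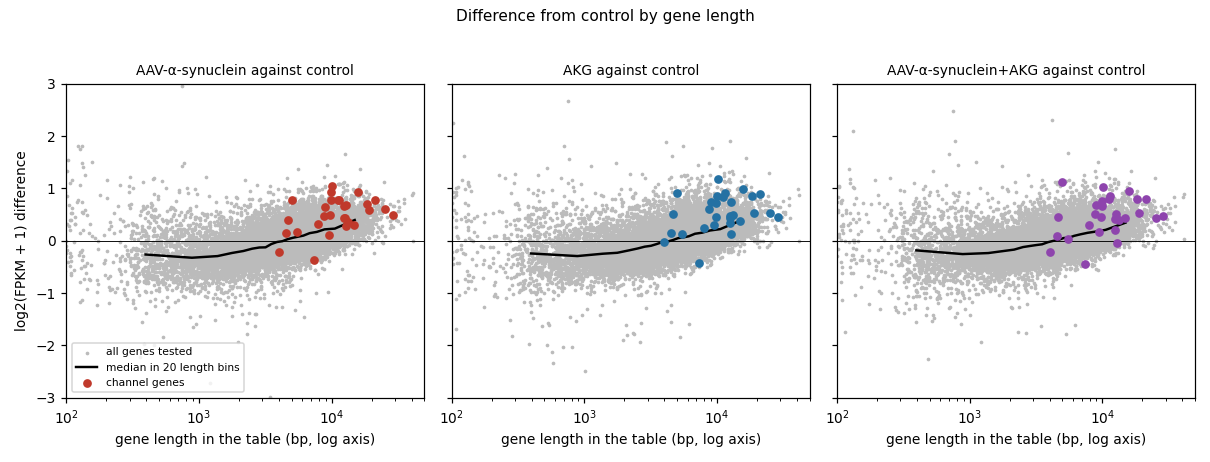
Difference in log2(FPKM + 1) from control (vertical axis) by gene length in the table (horizontal log axis) for all genes tested (grey), with the median in 20 length bins as a line and 29 of the channel genes in colour, for AAV-α-synuclein, AKG and combined libraries. The line climbs with length in all 3 panels, and most channel genes lie at its long end and over it. Over the 3 panels, 277 grey points lie outside the axes.

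Within single libraries the same dependence on length was seen. Across all genes tested, the deviation of control library 1 from the mean of the 8 libraries had a Spearman correlation of -0.52 with gene length, and that of control library 2 one of -0.28, against 0.26 and 0.45 in AAV-α-synuclein, 0.44 and 0.10 in AKG and 0.47 and -0.17 in combined libraries. The members' median deviation was 0.13 and 0.15 in AAV-α-synuclein, 0.22 and 0.13 in AKG and 0.22 and -0.0047 in combined libraries, against -0.63 and -0.13 in control libraries. With a smooth trend in length removed from each library, it was 0.066 and 0.062 in AAV-α-synuclein, 0.12 and 0.090 in AKG and 0.094 and 0.0068 in combined libraries, against -0.19 and -0.067 in control libraries. Both control libraries were still the lowest. The members' median differences from control were then 0.26 in AAV-α-synuclein, 0.16 in AKG and 0.21 in combined libraries, with 0 members called. Of the 31 members 25 were then higher in AAV-α-synuclein, 27 in AKG and 23 in combined libraries.

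Markers of neurons did not all move alike in the control libraries, and the pan-neuronal list was low in control library 1 and not in control library 2. The 12 pan-neuronal markers, all over 1 FPKM, had a mean log2(FPKM + 1) of 6.76 and 6.65 in AAV-α-synuclein, 6.68 and 6.72 in AKG and 6.68 and 6.73 in combined libraries, against 6.23 and 6.75 in control libraries. Their summed FPKM ran from 1864 to 2041 in AAV-α-synuclein, from 1903 to 2048 in AKG and from 1887 to 2121 in combined libraries, against 1642 and 2137 in control libraries. Thalamus and midbrain excitatory neuron markers, 7 of 8 over 1 FPKM, summed to 244 and 211 FPKM in AAV-α-synuclein, 268 and 274 FPKM in AKG and 229 and 246 FPKM in combined libraries. In control libraries they summed to 115 and 186 FPKM, so both control libraries were lowest by this sum, as they were for many channel genes. Gene by gene, both control libraries were lowest for Prkcd, Rora, Tcf7l2 and Zic1 and not for Slc17a6, Lef1 and Pou4f1. Pou4f1 was at 4.63 and 3.77 FPKM in control libraries, against 2.76 and 3.88 FPKM in AAV-α-synuclein libraries. GABA neuron markers, 4 of 4 over 1 FPKM, summed to 205 and 198 FPKM in AAV-α-synuclein, 201 and 165 FPKM in AKG and 203 and 221 FPKM in combined libraries. In control libraries they summed to 138 and 217 FPKM, so only control library 1 was low there. Forebrain excitatory neuron markers, 4 of 8 over 1 FPKM, had a mean log2(FPKM + 1) of 4.69 and 4.85 in AAV-α-synuclein, 4.58 and 5.37 in AKG and 5.14 and 4.83 in combined libraries, against 4.40 and 4.53 in control libraries, which were the lowest of the 8 by this measure. By summed FPKM control library 2, at 208, was over AAV-α-synuclein library 2 (199) and AKG library 1 (203). The sum of dopamine neuron markers, 9 of 12 over 1 FPKM, ran the other way, at 83.0 and 83.5 FPKM in AAV-α-synuclein, 71.2 and 81.6 FPKM in AKG and 88.6 and 100.2 FPKM in combined libraries, against 156 and 166 FPKM in control libraries. Of those 9, Th, Slc6a3, Slc18a2, Ddc and Aldh1a1 were higher in both control libraries than in all others. Nr4a2, Ret, Foxa1 and Drd2 were not, and Ret was lowest in control library 1, at 4.62 FPKM. Oligodendrocyte markers, all 10 over 1 FPKM, summed to 1705 and 1444 FPKM in AAV-α-synuclein, 1423 and 1713 FPKM in AKG and 1535 and 2336 FPKM in combined libraries, against 1524 and 2116 FPKM in control libraries. No marker of these lists was at 0 in all libraries, and the part of tissue make-up in the channel genes' values was not tested.

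**Figure D4:**
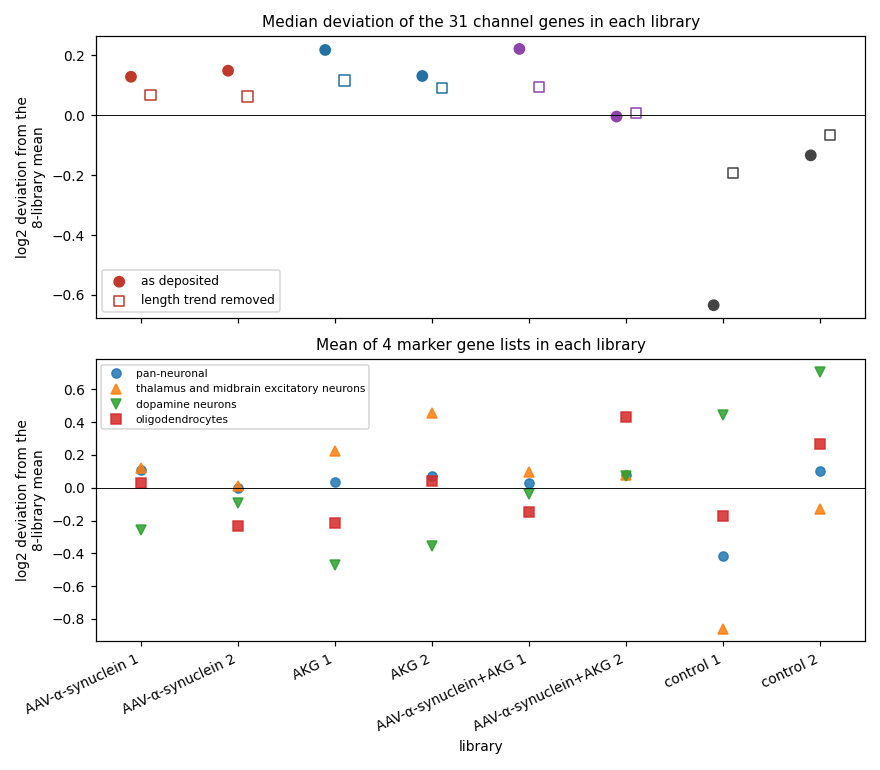
Top: median deviation of the 31 channel genes from their 8-library mean (log2 scale) in each library, as deposited (filled circles) and with the length trend removed (open squares), where control library 1 is at -0.63 and -0.19. Bottom: the mean log2(FPKM + 1) of 4 marker lists in the same libraries as a deviation from the 8-library mean, where pan-neuronal markers are low in control library 1 and not in control library 2.

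The genes that work beside these channels were taken as 10 lists of 87 genes, of which 84 were tested. Of the 84, 58 were higher than control in AAV-α-synuclein, 60 in AKG and 65 in combined libraries, with medians of 0.26 to 0.28 on the log2 scale, and limma called 0 in either direction in each comparison. The lists did not all lie at the same height. Proteins that anchor sodium channels at the axon initial segment and the node were higher for 7 of 7 genes in all 3 groups, with median differences from control of 0.67 to 0.72. Ank3, the ankyrin that ties sodium channels to the axon's cytoskeleton, was at 7.48 and 7.79 FPKM in AAV-α-synuclein libraries, 8.35 and 7.05 FPKM in AKG libraries, 8.57 and 7.22 FPKM in combined libraries and 2.81 and 5.41 FPKM in control libraries. Nfasc, the adhesion molecule of the initial segment and node, was at 18.6 and 18.7 FPKM in AAV-α-synuclein libraries, 20.4 and 19.0 FPKM in AKG libraries, 20.2 and 18.4 FPKM in combined libraries and 7.64 and 14.0 FPKM in control libraries. For both genes the control libraries lay under the other 6.

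Calcium pumps and exchangers were higher than control for 13 of 14 genes in AAV-α-synuclein and AKG and for 14 in combined libraries, with medians of 0.58 to 0.70. Slc24a2, a potassium-dependent sodium-calcium exchanger of neurons, was at 30.96 and 28.7 FPKM in AAV-α-synuclein libraries, 34.3 and 32.3 FPKM in AKG libraries, 34.7 and 32.1 FPKM in combined libraries and 9.04 and 21.7 FPKM in control libraries. Its differences from control were 1.03 ± 0.33 in AAV-α-synuclein, 1.18 ± 0.33 in AKG and 1.19 ± 0.33 in combined libraries, of the size of those of Cacna1g. Atp2b4, a calcium pump of the plasma membrane, differed by 0.59 ± 0.19 in AAV-α-synuclein against control. The calcium channel gamma subunits and the related AMPA receptor partners were higher for 6 of 6 tested genes in each group (medians 0.42 to 0.53), among them Cacng5 at 0.50 ± 0.14 and Cacng2 at 0.68 ± 0.28 in AAV-α-synuclein against control. All 4 genes of the NALCN sodium leak channel complex were higher in each group (medians 0.45 to 0.52), with its large subunits Unc80 at 0.999 ± 0.28 and Unc79 at 0.58 ± 0.19 in the same comparison. The intracellular FGF genes, whose products bind the tails of sodium channels, were higher for 3 or 4 of 4 in each group, with Fgf13 at 0.36 ± 0.22 and Fgf14 at 0.26 ± 0.17.

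The other 5 lists lay nearer to 0, and their counts run over the 3 groups against control. Calcium sensors and buffers were higher for 10 to 12 of 16 genes (medians 0.066 to 0.14), with Camk2a at 0.75 ± 0.22 and Camk4 at 0.70 ± 0.24, both kinases activated by calmodulin, in AAV-α-synuclein against control. Of the calcium channel regulators 4 to 5 of 9 were higher (medians -0.081 to 0.11), with the active zone scaffolds Rims2 at 0.54 ± 0.21 and Rims1 at 0.74 ± 0.31. Partners of release from the endoplasmic reticulum were higher for 5 to 7 of 12 (medians -0.017 to 0.059), with Homer2, a scaffold of inositol trisphosphate receptors, at 0.52 ± 0.17 and Jph4, a junctophilin of neurons, at 0.41 ± 0.18. Store-operated calcium entry had 2 to 3 of 5 genes higher (medians -0.025 to 0.029), with the store sensor Stim1 at 0.23 ± 0.11 and the pore Orai2 at 0.25 ± 0.14. The mitochondrial uniporter list had 3 of 7 genes higher in each comparison (medians -0.098 to -0.072), with its small regulators Smdt1 at -0.55 ± 0.23 and Mcub at -0.68 ± 0.34. The 3 groups share the control libraries here too. The 24 of the 84 genes longer than 8000 bp had median differences from control of 0.53 in AAV-α-synuclein, 0.53 in AKG and 0.51 in combined libraries, against 0.11, 0.068 and 0.11 for the 60 shorter ones. With the length trend removed the median over the 84 was 0.13 in AAV-α-synuclein, 0.16 in AKG and 0.18 in combined libraries.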

How the data were processed

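Total RNA of the substantia nigra of male mice was extracted with a column kit and made into libraries with a SMARTer mRNA-seq kit, per the labels' protocols. The authors deposited 1 table of FPKM per gene, with lengths and coordinates, per the file headers. The submitters' processing notes name the builds GRCm38 and mm10. No source used here gives the aligner, the counting tool or the strand setting. In each library FPKM times length came in equal steps, 100% of values lying within 0.01 of a whole step, and the number of steps was taken as the read count. The 13716 genes whose mean reached 1 FPKM were put on a log2(FPKM + 1) scale, which understates differences of low genes. They were fitted with limma 3.58.1 in R 4.3.3 (a mean for each of the 4 groups, moderated variances with a trend, two-sided, 4 residual degrees of freedom), with Benjamini-Hochberg adjustment over all genes tested and a threshold of 0.05. FPKM is per length, but deviations still ran with gene length within libraries, so levels, ratios and shares set side by side between genes of different length carry that trend. Intervals and limits from a count of 0 cover counting error only.

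The 6 comparisons were the 3 with control, the combined group against each single group, and the interaction. The members over the minimum are named with their levels, except 2 that are in every fit and count but are not reported here one by one. Under the same exception, values per library are given for the 3 members with the smallest unadjusted p in each of the 5 pairwise comparisons, for a set chosen by role, and for Scn7a and Cacna1h, chosen after their values were seen. Of each pathway list the 2 genes with the smallest unadjusted p in AAV-α-synuclein against control are named. The members, lists, tests and most alternatives were chosen with earlier results of these data known. The fits were tried on simulated data. Figures were drawn with matplotlib 3.10.9 and tables read with pandas 2.3.3 in Python 3.11.15.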

Additional observations from a re-analysis of the deposited data

How the results depend on the processing

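Limits: 2 libraries a group, 1 control library that stands apart, a length trend that runs with the groups, and shared control libraries. Besides leaving out libraries, the alternatives were the filter, pseudocount, scaling, variance model, library weights, samples in the fit, length trend, replicate block and, chosen after seeing the data, voom on recovered reads and a length and GC trend. The planned edgeR count test was not run because the deposited unit is FPKM, and voom took its place. The group-only fit could not be made for the interaction. Library weights came out equal for both libraries of a group (0.365 for each control library). They therefore could not set control library 1 apart from control library 2. Of the values behind the 6 comparisons, 307 stayed within 1.5 times or the spread and 50 did not. The 307 include values that could not change by construction, so the count is no measure of robustness. A median of a pairwise comparison stays the same under another variance model, under these library weights, or without a library outside the comparison. Counts of called members that stayed at 0 are among the 307 too.

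For AAV-α-synuclein against control, called genes (0) were 5 without a filter on low values and 0 to 3359 leaving out one library, and called members 0 to 17. The members' median (0.50) was 0.27 with the length and GC trend removed, 0.26 with the length trend removed, 0.72 at a pseudocount of 0.1, 0.73 with voom and 0.26 to 0.72 leaving out one library. For AKG against control, called genes (1) were 2 with the length and GC trend removed, 0 with the length trend removed, 0 with library weights, 12 without a filter, 0 without a variance trend, 2 at a pseudocount of 0.1, 0 with the replicate block and 0 to 3376 leaving out one library, and called members 0 to 16. The median (0.49) was 0.20 with the length and GC trend removed, 0.16 with the length trend removed, 0.72 with voom and 0.28 to 0.76 leaving out one library. It was 0.73 at a minimum of 5 FPKM, where it runs over the 18 members left and their differences are those of the main fit. For combined against control, called genes (0) were 1 with the length and GC trend removed, 4 without a filter, 1 at a pseudocount of 0.1 and 0 to 2916 leaving out one library, and called members 0 to 16. The median (0.46) was 0.17 with the length and GC trend removed, 0.21 with the length trend removed and 0.25 to 0.68 leaving out one library. For the interaction, called genes were 0 to 1369 and called members 0 to 12 leaving out one library, and the median (-0.57) was -0.24 with the length and GC trend removed, -0.24 with the length trend removed and -0.80 to -0.32 leaving out one library. Without a filter, 6 genes were called in combined against AAV-α-synuclein and 14 in combined against AKG. The greatest counts were those without control library 2, where Itpr1, Cacna1c, Cacna1a and Cacna1i had an adjusted p under 0.05 in the comparisons with control for which they are named, with the spread taken from the other groups alone.

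Leaving out one library, Cacnb3 ran from -0.46 to 0.10 in combined against AKG, and Scn3a from -0.47 to 0.0023 in combined against AAV-α-synuclein. The replicate numbers did not pair the libraries (correlations of deviations between groups from -0.32 to 0.34). With the replicate block, 0 members were called in each comparison and Th was no longer called in AKG against control. Members under 1 FPKM rest on 0 to 147 reads a library.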
